A study of Mus musculus with 9 samples.

Results

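The genes described here are 37 interferon-stimulated genes outside the OAS family, taken by symbol from the 23415 rows of the deposited expression table, and all 37 were found. The table writes symbols in capitals (IFIT1, IFIT3, IFI204, USP18, DHX58, RTP4), and mouse spelling is used here. Expression was read in CD4+ T cells that had been sorted out of the colon lamina propria of Rag1-/- recipient mice at the height of T cell transfer colitis. The donor cells were naive CD4+ CD25- CD45RBhigh T cells from CD160 knockout mice (4 samples) or from wildtype littermates (5 control samples). Rag1-/- hosts lack T and B cells of their own but keep macrophages, dendritic cells and neutrophils, and both groups came from hosts of this kind. The labels do not give the strain, age or sex, the part of Cd160 that was deleted, or whether different samples came from different recipients. The p-values therefore cover the spread between these samples, which may be partly technical. The values are TPM, a transcript's share of all transcripts, which corrects for transcript length and library total. Their sequencing depth is unknown, and in sorted bulk samples fewer cells expressing a gene and less RNA per cell cannot be told apart.

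Type I interferons bind the receptor made of IFNAR1 and IFNAR2, whose kinases JAK1 and TYK2 switch on transcription factors. With IRF9 these form a complex that binds the interferon-stimulated response element in promoters and switches on a common set of genes. Their products sense foreign nucleic acids, block viral translation, replication or entry, and attach or remove the ubiquitin-like protein ISG15. CD4+ T cells respond to type I interferon through this pathway, and interferon gamma and the IRF factors of myeloid cells induce part of the same set.

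The response element can be seen directly in the promoters of several members. Shown are the 160 bases before the annotated start of 6 genes with 5′ to 3′ sequence along the gene's strand, chosen because the core of the element, spelled GAAA, any 2 bases and GAAA again, or its reverse complement (TTTC, any 2 bases, TTTC) lies there. Capitals mark each match, and the sequences are RefSeq promoter windows of build GRCm38.p6:
Ifit1 (chr19:34640729-34640888, plus strand): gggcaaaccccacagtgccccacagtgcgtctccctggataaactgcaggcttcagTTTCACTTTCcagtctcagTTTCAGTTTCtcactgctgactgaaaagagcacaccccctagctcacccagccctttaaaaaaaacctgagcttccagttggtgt
Ifit3 (chr19:34583369-34583528, plus strand): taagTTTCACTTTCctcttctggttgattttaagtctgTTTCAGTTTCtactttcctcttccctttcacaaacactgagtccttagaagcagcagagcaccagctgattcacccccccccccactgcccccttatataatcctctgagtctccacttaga
Isg15 (chr4:156200819-156200978, minus strand): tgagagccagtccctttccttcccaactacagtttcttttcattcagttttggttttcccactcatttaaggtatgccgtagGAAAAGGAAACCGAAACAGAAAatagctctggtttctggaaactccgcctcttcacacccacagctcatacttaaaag
Rsad2 (chr12:26456453-26456612, minus strand): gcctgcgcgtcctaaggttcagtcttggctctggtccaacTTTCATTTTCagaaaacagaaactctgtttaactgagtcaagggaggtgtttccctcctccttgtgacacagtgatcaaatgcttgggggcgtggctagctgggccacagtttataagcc
Bst2 (chr8:71537473-71537632, minus strand): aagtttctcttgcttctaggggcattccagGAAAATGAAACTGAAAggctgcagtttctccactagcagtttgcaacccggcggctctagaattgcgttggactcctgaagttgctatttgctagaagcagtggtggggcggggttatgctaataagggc
Ifitm2 (chr7:140955962-140956121, minus strand): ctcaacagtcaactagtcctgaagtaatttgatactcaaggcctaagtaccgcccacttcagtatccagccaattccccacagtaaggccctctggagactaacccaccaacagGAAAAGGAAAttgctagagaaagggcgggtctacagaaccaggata

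Ifit1 and Ifit3, neighbours on chromosome 19, each carried 2 copies in the reverse orientation, beginning at bases -104 and -85 and at bases -156 and -122 from the start. In Isg15 3 matches overlapped one another from base -78 onward, and in Bst2 2 overlapped from base -130. Rsad2 and Ifitm2 held 1 match each, at bases -120 and -46. Windows running from 250 bases before to 50 bases after a start were found for 27 of the 37 members. Of these, 14 genes (51.9%) held the core on either strand, against 3.99% of 27025 genes with a window, and 10 held it before the start. The motif map places all these matches. A match is a description of letters and was not tested for binding.

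**Figure D1:**
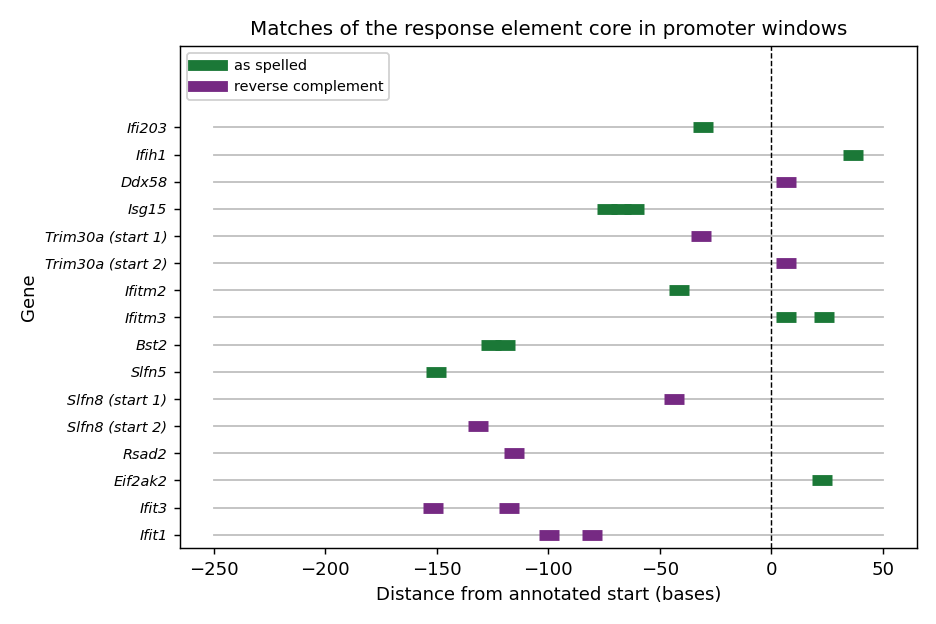
Matches of the response element core (green, as spelled; purple, reverse complement) along promoter windows from 250 bases before to 50 bases after the annotated start (dashed line) for the 14 members with a match. Genes with matches at more than 1 annotated start have a line for each; Ifit1, Ifit3, Isg15, Bst2 and Ifitm3 hold more than 1 match in a window.

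One control sample stood apart from the other 8 before any comparison. In control replicate 1, 7308 genes reached 1 TPM, against 11088 to 11711 in the others, and only 24 of the 37 members reached 1 TPM there, against 34 to 37. Results are given with and without it. Cd160 itself stood at 5.44 to 18.8 TPM in the knockout samples and 31.8 to 212.4 TPM in the controls. An entry for the reporter tdTomato was 0 in each of the 4 knockout samples and 2.52 to 8.78 TPM in the controls. The labels do not mention this second difference between the groups. Its origin was not tested, and whatever it reflects cannot be told apart from loss of CD160. Markers of T cells were abundant in all samples, with Cd3e at 246.4 to 464.4 TPM, except in control replicate 1, where it was lower at 30.99 TPM.

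As a set, the members stood a little higher in the knockout samples, and no single gene passed the test across all genes. Their mean on the log2(TPM + 1) scale was 5.08, 5.02, 5.00 and 4.75 in knockout replicates 1 to 4. It was 3.07, 4.57, 4.41, 4.77 and 4.53 in control replicates 1 to 5. Knockout replicate 4 thus lay just below control replicate 4, so the groups overlapped by that pair even with control replicate 1 set aside. Ifi44, an interferon-induced cytoplasmic protein gene, stayed below the filter of 1 TPM in 4 samples, with 0.48 to 1.45 TPM in knockouts and 0.09 to 0.47 TPM in controls. The other 36 were tested with limma on log2(TPM + 1), and 0 passed an adjusted p of 0.05, where 0.0174% of 11495 genes did. At an unadjusted p under 0.05 there were 7 members higher and 0 lower, 19.4% of 36, against 5.78% of all genes higher and 0.618% lower. Differences were positive for 33 of 36 (91.7%), against 86.7% of all genes. Every knockout value lay above every control value for 8 members (22.2%), against 3.88% of all genes. With median-of-ratios or quantile scaling, which brought the median difference of all genes from 0.46 to 0.018 and -0.0011, positive differences numbered 21 and 29 of 36, against 51.9% and 49.9% of all genes. Under each, 5 members were apart, against 2.06% and 1.78% of all genes. Without knockout replicate 1 or 2 there were 4 members, not 7, at an unadjusted p under 0.05 and higher, against 6.86% and 4.14% of all genes.

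The same picture was clearer in relative terms without control replicate 1. The median log2 difference, knockout minus control, was 0.62 over the members and 0.46 over all genes with 9 samples, a gap of 0.17. With 8 samples the medians were 0.27 and -0.014, a gap of 0.29, and 32 of 36 members had positive differences against 47.5% of all genes. There were then 11 members at an unadjusted p under 0.05 and higher (30.6%, against 8.44% of all genes), 0 lower (4.41% of all genes), and 0 past the adjusted threshold in limma, where 0.0262% of all genes passed. The groups were apart for 9 members (25%, against 4.01% of all genes), among them all 8 found with 9 samples. When samples were weighted by their quality instead, 6 members passed the adjusted threshold in limma, all higher, where 3.83% of all genes passed as higher. These were Ifi204, Ifit3, Ifit2, Usp18, Rtp4 and Dhx58, with log2 differences of 1.74, 1.55, 0.79, 1.04, 1.07 and 0.51 and adjusted p values from 0.0214 to 0.0347. At an unadjusted p under 0.05 there were then 11 higher, against 12.5% of all genes. The weights are estimated from the spread of these same samples, and the call is lost without them.

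**Figure D2:**
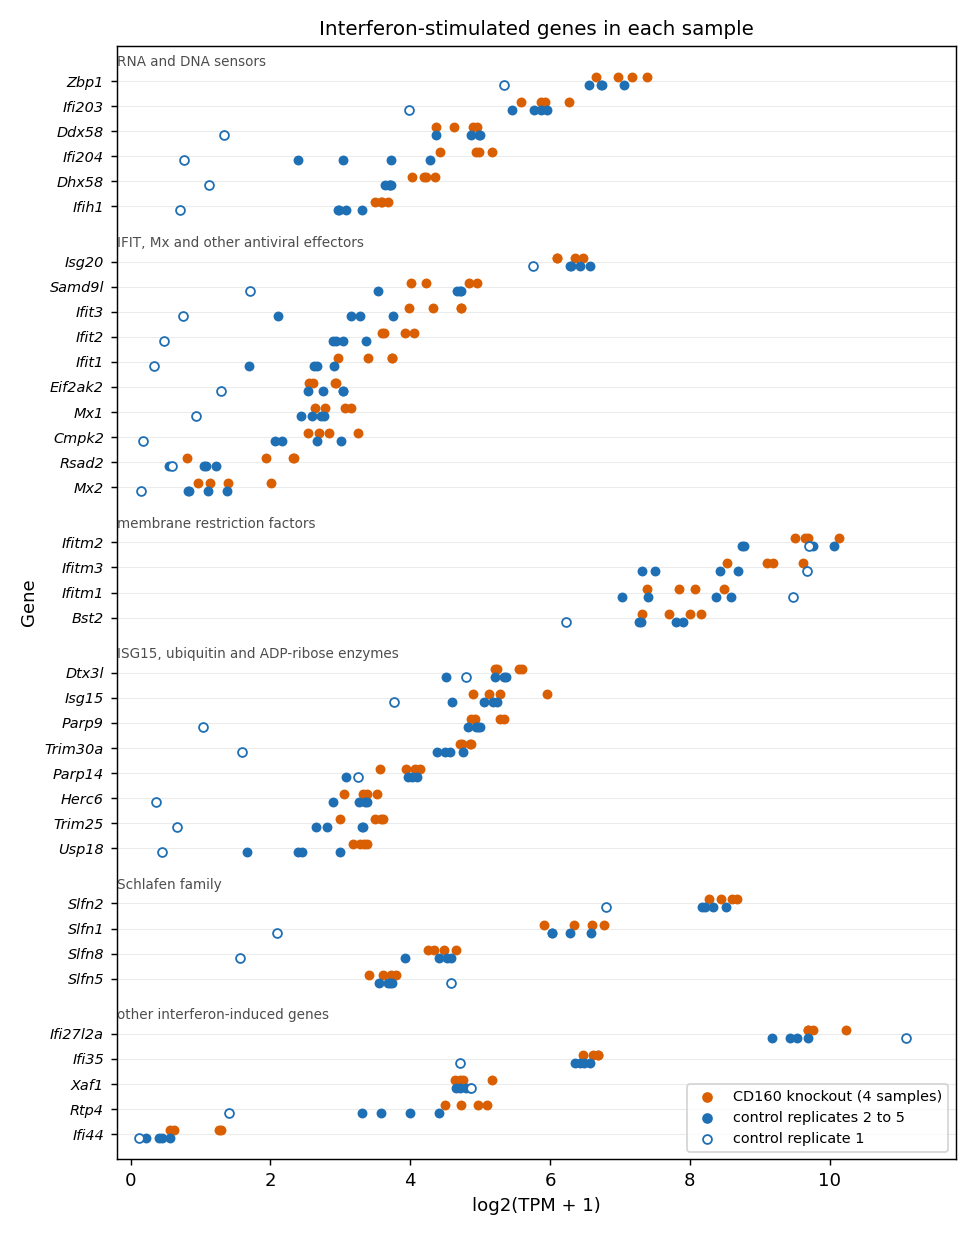
Level of each of the 37 genes in each sample as log2(TPM + 1), grouped by role and ordered by mean level (orange, CD160 knockout; blue, control; open circle, control replicate 1). Ifit3, Ifi204, Dhx58 and Rtp4 show knockout points to the right of all controls, whereas Ddx58, Xaf1 and Slfn5 overlap.

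**Figure D3:**
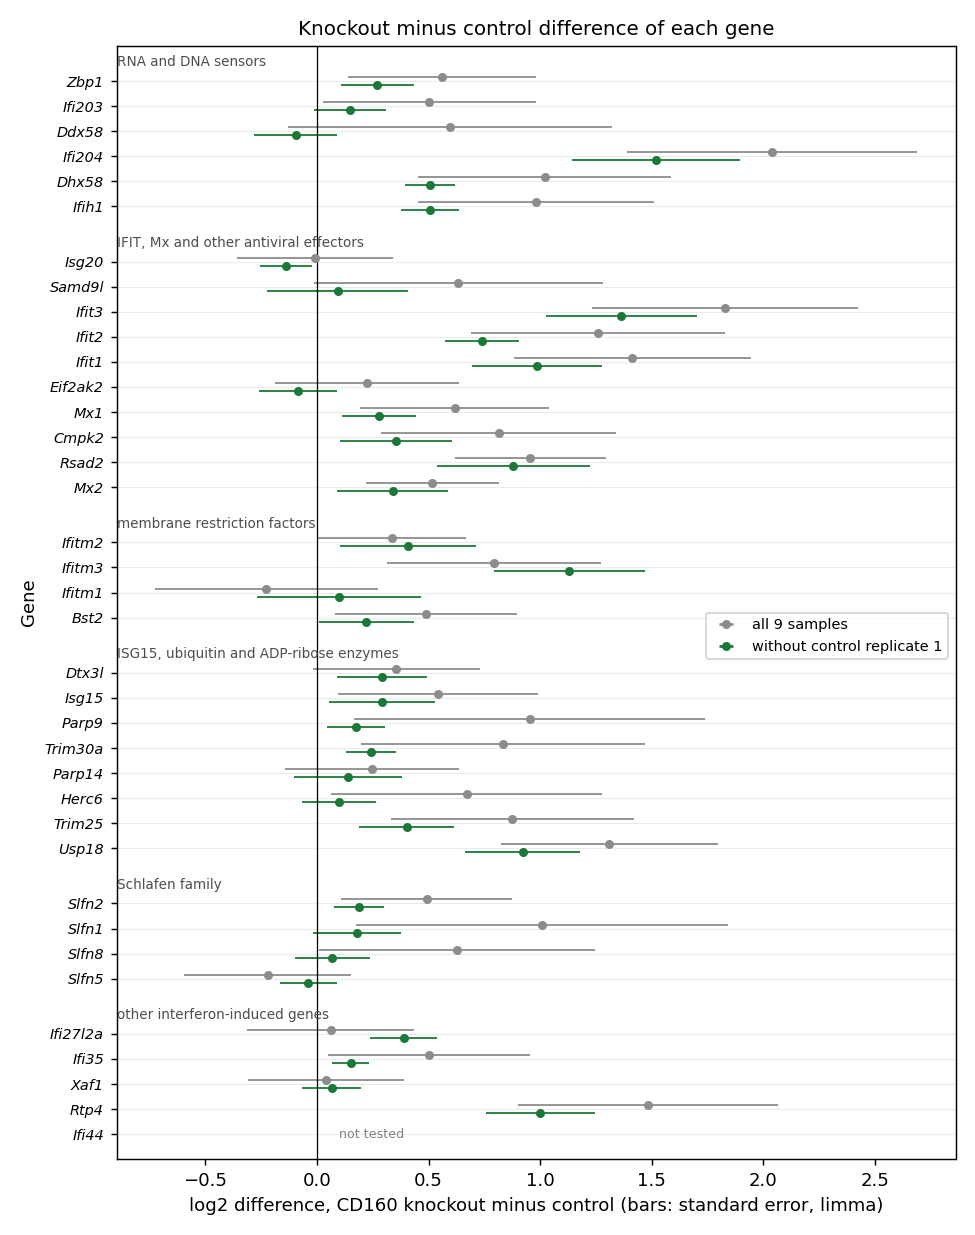
Log2 difference of each gene, CD160 knockout minus control, with its standard error from limma, from all 9 samples (grey) and without control replicate 1 (green). Leaving that sample out narrows the errors and moves most differences toward 0, with Ifi204, Ifit3 and Ifitm3 then having the 3 highest values.

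Among the sensors of nucleic acids, Ifi204, Dhx58 and Ifih1 separated the groups and Ddx58 did not. Ifi204 encodes a DNA-binding protein of the interferon-inducible p200 family. Knockout replicates 1 to 4 had 29.7, 20.4, 30.5 and 35.1 TPM, and control replicates 1 to 5 had 0.69, 18.4, 4.25, 12.3 and 7.19 TPM; later values follow this order. All 4 knockout samples were above all 5 controls, although knockout replicate 2 and control replicate 2 differed little. Knockouts averaged 28.9 ± 6.17 TPM (SD, n = 4), and all controls together averaged 8.56 ± 6.95 TPM (SD, n = 5). The log2 difference was 2.04 (standard error 0.65, limma adjusted p 0.598), and 1.52 (0.38, adjusted p 0.157) without control replicate 1.

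Dhx58 encodes LGP2, a helicase that tunes signalling by the RNA sensors RIG-I and MDA5. Its values were 17.7, 15.3, 17.4 and 19.4 TPM in the knockouts and 1.18, 12.0, 12.2, 12.1 and 11.5 TPM in the controls. Control replicates 2 to 5 lay within 1 TPM of one another, with a mean of 11.9 ± 0.323 TPM (SD, n = 4) against 17.4 ± 1.69 TPM (SD, n = 4) in knockouts. The log2 difference was 1.02 with all samples and 0.51 (standard error 0.11) without control replicate 1, with limma adjusted p values of 0.745 and 0.136. Ifih1, which encodes MDA5, a sensor of long double-stranded RNA, was at 11.9, 10.96, 11.03 and 10.3 TPM in knockouts and 0.63, 7.47, 6.82, 6.86 and 8.89 TPM in controls. The groups did not overlap, and the log2 difference was 0.98 with all samples and 0.51 without control replicate 1.

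Ddx58, which encodes RIG-I, the partner sensor of RNA ends, averaged 25.5 ± 4.82 TPM (SD, n = 4) in knockouts, and control replicates 2 to 5 were no lower, at 27.4 ± 5.28 TPM (SD, n = 4). Its log2 difference of 0.60 with all samples became -0.096 without control replicate 1, where it was listed at 1.53 TPM. Zbp1, a sensor of left-handed nucleic acids that can trigger cell death, was the most abundant sensor at 165.8, 124.8, 99.9 and 142.6 TPM in knockouts and 39.4, 106.2, 93.5, 132.6 and 104.9 TPM in controls. Its groups overlapped through knockout replicates 2 and 3. Ifi203, of the same family as Ifi204, overlapped as well, with 47.04 to 76.1 TPM in knockouts and 14.8 to 61.2 TPM in controls.

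The antiviral effectors were led by the IFIT genes, whose proteins bind foreign RNA and restrain its translation. Ifit3 (chromosome 19, 34583531 to 34588731, build GRCm38) had 14.7, 25.6, 25.6 and 18.96 TPM in the knockouts and 0.68, 12.5, 3.31, 7.88 and 8.75 TPM in the controls. The lowest knockout value was above the highest control value. The knockout mean, 21.2 ± 5.32 TPM (SD, n = 4), was 2.61 times that of control replicates 2 to 5, 8.12 ± 3.78 TPM (SD, n = 4). The log2 difference was 1.83 (standard error 0.60) with all samples and 1.36 (0.34) without control replicate 1, with limma adjusted p values of 0.598 and 0.159.

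Ifit1 (chromosome 19, 34640871 to 34650009) had values of 12.3, 12.4, 9.55 and 6.80 TPM in knockouts and 0.26, 5.37, 2.24, 6.52 and 5.15 TPM in controls. Knockout replicate 4 was barely above control replicate 4, and the other 3 knockout samples stood clear. Its log2 difference was 1.41 with all samples and 0.99 (standard error 0.29) without control replicate 1. Ifit2, named after its values were seen, had 11.3, 14.1, 15.7 and 11.1 TPM in knockouts and 0.39, 7.22, 6.42, 9.32 and 6.69 TPM in controls, again without overlap. Its log2 difference without control replicate 1 was 0.74 (standard error 0.17), with a limma adjusted p of 0.139. The 3 IFIT genes lie in 1 cluster, with 7111 bases between Ifit2 and Ifit3 and 52139 between Ifit3 and Ifit1. Ifit3 has a near-identical copy, Ifit3b, and reads shared between them make the split of their values uncertain. Ifit3b had 3.87, 5.19, 4.85 and 2.71 TPM in knockouts and 0.44, 1.68, 0.56, 3.29 and 4.45 TPM in controls. Its groups overlapped, with a log2 difference of 0.69 (limma adjusted p 0.508) without control replicate 1.

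For Ifi204, Dhx58, Ifih1, Ifit1, Ifit2, Ifit3, Usp18 and Rtp4, p was 0.0159 each in a two-sided exact permutation test over samples, the smallest that 4 against 5 samples allow. A gene whose groups do not overlap always has this smallest p, so the test here only restates that separation. Of all genes, 3.88% were apart and higher in the knockouts. Adjusted over all 11495 genes by Benjamini-Hochberg this exact test gave 0.322. Without control replicate 1 the smallest possible exact p is 0.0286, and those 8 genes and Ifi27l2a had it. This again restates their separation, which 4.01% of all genes showed in that direction.

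The groups overlapped for the remaining effectors. Rsad2, which encodes viperin, an enzyme that makes a chain-terminating nucleotide, was at 4.00, 4.05, 2.83 and 0.75 TPM in knockouts and 0.50, 1.33, 0.46, 1.11 and 1.06 TPM in controls. Knockout replicates 1, 2 and 3 were above every control, and replicate 4 was below 3 controls. The log2 difference was 0.96 with all samples and 0.88 (standard error 0.34) without control replicate 1, and the exact permutation p was 0.0635. Cmpk2, a nucleotide kinase that lies 12751 bases from Rsad2 and supplies its substrate, overlapped, with 4.79 to 8.50 TPM in knockouts and 0.13 to 7.02 TPM in controls. Isg20, an RNA exonuclease, was the most abundant of this group at 88.1, 81.0, 67.8 and 67.9 TPM in knockouts and 52.9, 78.1, 94.4, 85.4 and 77.1 TPM in controls, with a log2 difference of -0.0093. Mx1, Mx2, Samd9l and Eif2ak2 had log2 differences from -0.087 to 0.34 without control replicate 1, and their groups overlapped. Mx1 and Mx2 encode dynamin-like GTPases, Samd9l a translation-restricting factor and Eif2ak2 the kinase PKR.

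The membrane restriction factors, which act on virus entry or release, were among the most abundant members and did not separate the groups. Ifitm3 was at 787.5, 368.7, 585.1 and 549.8 TPM in knockouts and 815.8, 343.6, 158.6, 411.9 and 179.7 TPM in controls. Control replicate 1 had the highest value of all 9, and knockout replicate 2 lay below control replicate 4. Its log2 difference was therefore larger without that control, 1.13 (standard error 0.34, limma adjusted p 0.213), than with it, 0.79. Ifitm2 was at 826.2, 804.0, 1120 and 728.1 TPM in knockouts and 833.7, 868.6, 435.9, 1072 and 429.4 TPM in controls. In Ifitm2 and Ifitm3 alike, control replicates 3 and 5 were the lowest samples. Ifitm1 ranged from 166.7 to 358.3 TPM in knockouts and from 129.6 to 711.3 TPM in controls. Bst2, which encodes tetherin, was at 157.5, 206.5, 284.0 and 256.0 TPM in knockouts and 74.2, 238.9, 153.4, 221.6 and 157.3 TPM in controls, with a log2 difference of 0.49 and overlapping groups.

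In the ISG15 and ubiquitin group, Usp18 alone separated the groups. Usp18 removes ISG15 from proteins and also shuts off signalling at the interferon receptor. It stood at 9.46, 8.68, 9.16 and 8.11 TPM in knockouts and at 0.36, 7, 2.16, 4.46 and 4.27 TPM in controls. The knockout samples were tightly grouped, at 8.85 ± 0.59 TPM (SD, n = 4), while control replicates 2 to 5 averaged 4.47 ± 1.98 TPM (SD, n = 4). The log2 difference was 1.31 with all samples and 0.92 (standard error 0.26) without control replicate 1, with limma adjusted p values of 0.668 and 0.185.

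Isg15, the modifier itself, ranged from 28.9 to 61.3 TPM in knockouts and from 12.6 to 37.0 TPM in controls, with knockout replicate 1 the highest. Trim25, a ubiquitin ligase of the RIG-I pathway, was at 11.3, 10.3, 11 and 7 TPM in knockouts and 0.58, 5.30, 8.91, 8.98 and 6.03 TPM in controls. Knockout replicate 4 lay among the controls and the other 3 above them. Trim30a, a ubiquitin ligase that dampens inflammatory signalling, was at 28.3, 27.8, 25.6 and 25.1 TPM in knockouts. Controls had 2.01, 19.8, 21.6, 26 and 22.7 TPM. Its exact permutation p was 0.0476, which became 0.424 when adjusted over all genes. Leaving out control replicate 1 raised the unadjusted exact p to 0.0857. Limma gave Trim30a 0.83 on the log2 scale (adjusted p 0.745) from all samples, and 0.24 (adjusted p 0.410) once that control was dropped. Control replicate 4 overlapped the knockout range. Herc6, the mouse ligase that attaches ISG15, overlapped with 7.31 to 10.5 TPM in knockouts and 0.28 to 9.40 TPM in controls.

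The ADP-ribose enzymes Parp9 and Parp14 and the Parp9 partner Dtx3l had log2 differences of 0.17, 0.14 and 0.29 without control replicate 1. Dtx3l, the most abundant gene of its group, was at 47.4, 45.9, 37.0 and 35.9 TPM in knockouts and 26.7, 21.8, 39.5, 40.3 and 36.2 TPM in controls. Dtx3l and Parp9 face away from each other on chromosome 16 and overlap by 682 bases (35938470 to 35939151), and the labels do not state that strand was used in counting, so reads there cannot be told apart. In control replicate 1 the pair nevertheless came apart, with Dtx3l at 26.7 TPM and Parp9 at 1.05 TPM.

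Schlafen genes, regulators of T cell quiescence and of tRNA and translation, showed no separation between the groups. Slfn2, whose loss breaks quiescence in T cells, was the most abundant at 407.0, 386.6, 347.6 and 307.9 TPM in knockouts and 110.1, 321.2, 295.7, 365.1 and 287.7 TPM in controls. Slfn1 was at 107.9, 96.5, 80.1 and 59.4 TPM in knockouts and 3.25, 77.2, 64.0, 94.8 and 64.0 TPM in controls, so knockout replicate 4 was below controls 2 to 5. Slfn8 was at 19.2, 24.1, 21.3 and 18.0 TPM in knockouts and 1.95, 14.2, 22.1, 20.2 and 22.8 TPM in controls. Differences of the 4 Schlafen members lay between -0.040 and 0.19 on the log2 scale without control replicate 1. The family holds close paralogs, so single values are uncertain.

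Of the other interferon-induced genes, Rtp4 separated the groups. Rtp4, an interferon-induced protein that restrains flavivirus replication, was at 30.3, 21.5, 33.4 and 25.3 TPM in knockouts and 1.65, 14.9, 8.92, 20.2 and 10.9 TPM in controls. Knockout replicate 2 and control replicate 4 were close neighbours across the gap. Its log2 difference was 1.48 with all samples and 1.00 (standard error 0.24) without control replicate 1, with limma adjusted p values of 0.682 and 0.157. Ifi27l2a, a small interferon-induced protein and the most abundant member by mean level, was at 1205, 822.9, 826.8 and 866.9 TPM in knockouts and 2189, 741.3, 574.1, 822.7 and 689.8 TPM in controls. Only with control replicate 1 left out were its groups apart, and then by the closest of margins. Ifi35, a leucine zipper protein, was at 102.1, 102.1, 97.2 and 87.3 TPM in knockouts and 25.2, 85.5, 89.0, 94.0 and 81.1 TPM in controls, and Xaf1, an antagonist of a caspase inhibitor, overlapped fully with log2 differences of 0.042 and 0.065.

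The members thus fell along a range rather than moving as a block. Without control replicate 1, the ratio of mean TPM in knockouts to controls was at least 1.5 for 9 of the 36 tested members, Rsad2, Ifi204, Ifit3, Ifit1, Ifitm3, Rtp4, Usp18, Ifit2 and Mx2. It was highest for Rsad2, at 2.94, and lay between 0.9 and 1.1 for 10 members, among them Ddx58, Eif2ak2, Samd9l, Isg20 and Xaf1. These ratios were not counted over all genes, so whether such a range is particular to the members was not tested. Knockout replicate 1 had the highest value of the 4 knockout samples for 18 of 37 members and knockout replicate 4 the lowest for 25. Among control replicates 2 to 5, replicate 4 was highest for 18 members, and replicates 3 and 2 were lowest for 15 and 13.

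Members were not equally low in control replicate 1. Of the 37, it had the lowest value of all 9 samples for 28, and for 15 it stood below 0.1 of the mean of the other controls. It exceeded that mean for 6 members, namely Ifi27l2a, Ifitm3, Ifitm1, Slfn5, Ifitm2 and Xaf1. These counts were not made over all genes. The sample was low across the table, with a mean log2(TPM + 1) of 2.09 over all tested genes against 3.95 to 4.21 in the other samples. The 6 members whose longest transcript is under 1000 bases had a median log2 difference of 1.00 between this sample and the other controls, against -0.26 over all tested genes of that length. For the 7 members of 1000 to 2000 bases and the 13 of 2000 to 4000 bases the medians were -1.93 and -2.30, against -1.93 and -2.36 over all genes. The 11 members of 4000 bases and over ranged from -2.87 to 0.91, with a median of -1.56 against -2.10.

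**Figure D4:**
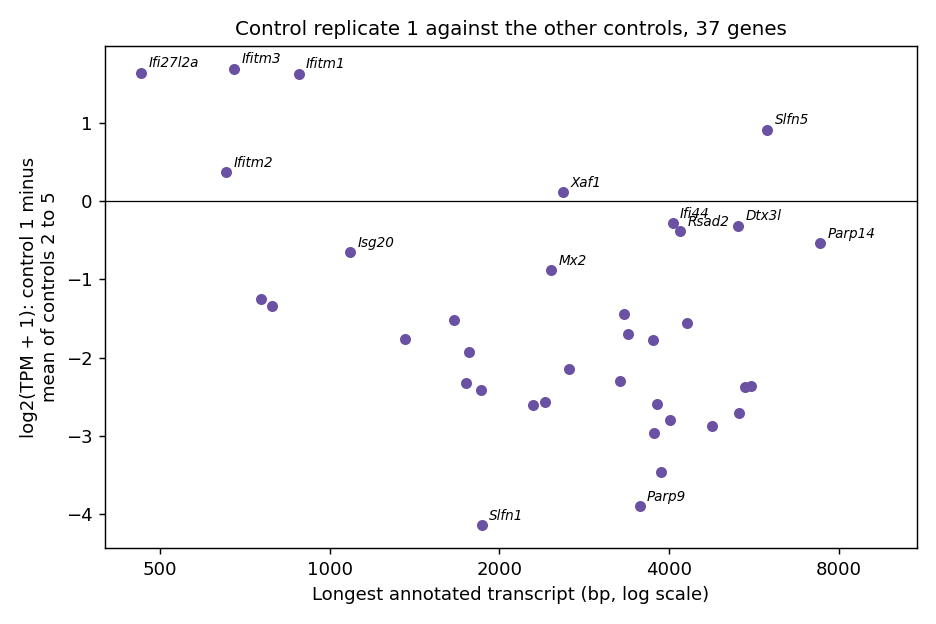
Difference between control replicate 1 and the mean of control replicates 2 to 5 in log2(TPM + 1), against the longest annotated transcript in bases (log scale), for the 37 genes. Ifi27l2a, Ifitm1, Ifitm2 and Ifitm3, all under 1000 bases, lie above 0 with Slfn5 and Xaf1, and most longer genes lie well below.

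Markers of other cells moved with the groups as well. The mean of 10 macrophage and monocyte markers was 7.65, 8.12, 8.84 and 8.91 on the log2(TPM + 1) scale in knockout replicates 1 to 4 and 4.54, 7.95, 6.41, 7.44 and 6.23 in control replicates 1 to 5. All 10 had a higher mean TPM in knockouts than in control replicates 2 to 5, none was listed at 0 throughout, and their summed level was 8485 to 15212 TPM in knockouts and 1004 to 9421 TPM in controls. Of 6 dendritic cell markers 5 were higher in knockouts, with sums of 48.3 to 70.6 TPM against 7.81 to 54.4 TPM. The plasmacytoid dendritic cell list, of which Bst2 is also a member here, was higher for 4 of 5. Of 6 neutrophil markers 5 were higher in knockouts than in control replicates 2 to 5, and their sum was 326.0 TPM in control replicate 1, 152.6 TPM in knockout replicate 1 and 20.3 to 58.6 TPM elsewhere. S100a8 and S100a9 made up most of the first of these sums, whereas Csf3r was lowest in control replicate 1, at 3.30 TPM. T cell markers were lower in the knockouts for 6 of 6 genes against control replicates 2 to 5, with sums of 3259 to 4021 TPM and 3946 to 4663 TPM. B cell markers were below 1 TPM in all samples for 5 of 6, with Ms4a1 and Mzb1 listed at 0. Markers of NK and CD8 T cells went the other way, with 2 of 6 higher in knockouts and sums of 52.7 to 85.9 TPM against 112.8 to 316.8 TPM in control replicates 2 to 5. Among them Klrd1 had 34.9 to 60.3 TPM in knockouts and 82.6 to 210.2 TPM in those controls. Colon epithelium and stroma markers were higher in knockouts for 6 of 8 and 6 of 7. The part of these cells in the members' differences was not tested beyond the macrophage covariate.

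Among controls, the mean macrophage marker level was highest in replicate 2, above that of knockout replicate 1. In knockout replicates 1 to 4, 34, 31, 31 and 28 of 37 members were higher than in control replicate 2, against 58.1%, 73.9%, 65.4% and 61.8% of all tested genes. This comparison of single samples was chosen after the values were seen. Against control replicate 4 these counts were 27, 27, 25 and 17 of 37, against 40.4%, 66.1%, 47.2% and 42.8% of all tested genes.

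Adding the macrophage marker mean to the model, with control replicate 1 left out, moved members in both directions. The log2 differences of 9 of the 11 members with an unadjusted p under 0.05 became smaller, for example from 1.52 to 0.58 for Ifi204, from 1.36 to 0.74 for Ifit3, from 1.13 to 0.55 for Ifitm3 and from 1.00 to 0.58 for Rtp4. These 11 were chosen by their p without the covariate, a choice that itself favours smaller differences in another fit. The same count over all genes chosen in this way was not made. Ifit2, Ifih1 and Dhx58 kept an unadjusted p under 0.05 in limma, at 0.56, 0.62 and 0.44. Across the whole set, 23 of 36 differences became larger, among them Isg15 from 0.29 to 0.79, Dtx3l from 0.29 to 0.74 and Mx1 from 0.28 to 0.62. All genes shifted too, their median from -0.014 to 0.10 and their positive share from 47.5% to 64.0%. How many of all genes became larger was not counted. The median of the members was then 0.41, a gap of 0.31 to all genes, against 0.29 without the covariate. With it, 32 of 36 members were positive against 64.0% of all genes. At an unadjusted p under 0.05 there were 8 members higher (22.2%, against 7.69% of all genes) and 1 lower, Bst2, at -0.42, against 3.27% of all genes lower. With all 9 samples the covariate also followed control replicate 1, the median of the members was -0.040 against -0.47 for all genes, and 17 of 36 members were positive (47.2%, against 14.9% of all genes). At an unadjusted p under 0.05 there were 0 members higher or lower, against 0.574% and 1.19% of all genes. Dhx58, Ifih1 and Ifit2 then had log2 differences of -0.20, -0.050 and -0.030.

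**Figure D5:**
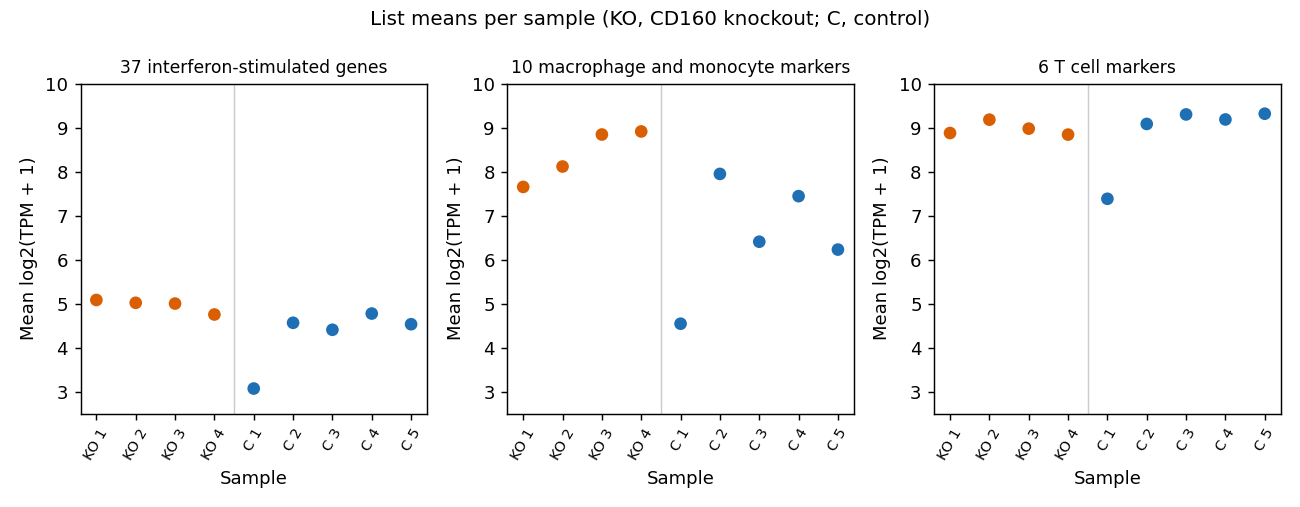
Mean log2(TPM + 1) per sample of the 37 interferon-stimulated genes (left), 10 macrophage and monocyte markers (middle) and 6 T cell markers (right) in CD160 knockout (KO, orange) and control (C, blue) samples. Control replicate 1 is lowest in all 3 panels; without it the interferon means of the groups nearly separate, and the macrophage means overlap through knockout replicate 1 and control replicate 2.

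The rest of the interferon pathway was read from a list of 48 genes, of which 27 were tested and 0 passed the adjusted threshold in limma with 9 or 8 samples. The ligands were near silent: none of 19 type I and type III interferon genes passed the filter, and the highest value was 0.53 TPM. All 27 tested genes had positive differences with 9 samples, against 86.7% of all genes, and 24 of 27 without control replicate 1, against 47.5%, when their median was 0.25. At an unadjusted p under 0.05 there were 3 higher and 0 lower with 9 samples, against 5.78% of all genes higher. Without control replicate 1 there were 8 higher and 0 lower, against 8.44% of all genes higher. The macrophage covariate without that sample left 4 higher (7.69% of all genes) and 23 of 27 positive (64.0% of all genes). With the covariate and 9 samples, 3 of 27 were positive, against 14.9% of all genes.

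Ifnar1 and Ifnar2, the receptor chains for type I interferon, had log2 differences of 0.25 and 0.26 without control replicate 1. Ifngr2, the signalling chain of the interferon gamma receptor, stood apart: knockouts averaged 45.1 ± 10.1 TPM (SD, n = 4) and control replicates 2 to 5 averaged 18.6 ± 9.97 TPM (SD, n = 4). Its log2 difference was 1.36, and 0.36 with the macrophage covariate. Ifngr1, the ligand-binding chain, had 0.37. Stat2 had 0.25 and Irf9 0.13.

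Among inducers of interferon, Irf5, a factor of myeloid cells, had a log2 difference of 1.12 without control replicate 1 and 0.30 with the covariate, and Tlr7, an endosomal RNA sensor, had 1.14 and 0.11. Tlr9, its DNA-sensing relative, had 0.65 and -0.33, and Ikbke, a kinase that activates IRF3 and IRF7, 0.22 and 0.56. The feedback inhibitors Socs3 and Socs1, which block JAK kinases, had 0.91 and 0.60, and 0.40 and 0.76 with the covariate. Limma adjusted p values of these genes without control replicate 1 were all above the threshold, at 0.154 for Socs3 and 0.173 for Ifngr2. With samples weighted by quality, Ifngr2, Tlr7, Socs3 and Irf5 passed, with adjusted p values in limma of 0.0221 to 0.0327.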

How the data were processed

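RNA was measured in 9 samples, 4 CD160 knockout and 5 control, with a modified SMART-Seq2 protocol and tagmentation, which keep no strand, per the labels' protocols. The authors deposited TPM values per gene, and no TPM depth can be recovered from them. Trimmomatic 0.32, Bowtie2 2.2.9, RSEM 1.2.31 and build GRCm38 are named in the submitters' processing notes, without settings. Because TPM shares sum to a constant, strong expression of some genes depresses the rest. Groups and replicate numbers follow the titles.

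The whole table was fitted with limma 3.58.1 (eBayes with trend) in R 4.3.3 on log2(TPM + 1), which understates changes at low values. Genes needed 1 TPM in at least 4 samples, and 11495 passed with 9 samples and 11457 with 8. Adjustment was by Benjamini-Hochberg over all genes, with a threshold of 0.05. The fit was tested on data simulated for the 8 samples without control replicate 1, with independent noise per gene, and not for all 9. Exact two-sided permutation tests ran over samples for each gene. Positions and transcript lengths come from GENCODE M21 (GRCm38).

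Genes described in full were, in each role group, the 3 with the smallest unadjusted p and the most abundant, and up to 2 per pathway list by smallest p; Ifit2 and, of the pathway, Ifnar1, Ifnar2 and Irf9 are named beyond this rule, and 1 pathway gene is not reported here. Members and lists were chosen with earlier results of these data known. Alternatives were other pseudocounts, filters and scalings, robust variance, quality weights, a macrophage covariate, a replicate block and leaving samples out.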

Additional observations from a re-analysis of the deposited data

Results flagged for a closer look

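In the control group of 5, replicate 1 stood far from the other 4 for the mean of all members, at 3.07 on the log2(TPM + 1) scale, and for single members. It was the lowest control for Dhx58 at 1.18 TPM, Ifi35 at 25.2 TPM, Ifih1 at 0.63 TPM, Ifit2 at 0.39 TPM and Slfn1 at 3.25 TPM. The same held for Slfn2 at 110.1 TPM, Slfn8 at 1.95 TPM, Trim25 at 0.58 TPM, Trim30a at 2.01 TPM and Zbp1 at 39.4 TPM. For Ifi27l2a this sample was instead far above the other controls, at 2189 TPM, and knockout replicate 1 was far above the other knockouts, at 1205 TPM. Chance alone sets apart about 1 in 20 such groups, and all but 1 of these cases fall on the same sample.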

How the results depend on the processing

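No member passed the adjusted limma threshold under any alternative except library quality weights, with which 6 members and 4 pathway genes passed and 11 members were at an unadjusted p under 0.05 and higher. Leaving out 1 sample at a time gave 0 members called, a median relative to all genes of 0.14 to 0.29, 8 to 12 members apart (3.88% of all genes in the full set, 4.01% to 9.83% here) and 4 to 11 at an unadjusted p under 0.05 and higher (2.68% to 8.44% of all genes). The last count was 4 without knockout replicate 1 or 2 and 11 without control replicate 1; 12 were apart without knockout 4. Leaving out a further sample beside control replicate 1, chosen after seeing the data, gave 9 to 14 at that level (5.86% to 11.9% of all genes), 11 without knockout 3 or control 2 and 14 without knockout 4 or control 4, with 13 members apart without knockout 4 (5.07% of all genes). Without control replicate 1 and with median-of-ratios scaling there were 11 (8.27% of all genes). The median relative to all genes was 0.41 with no filter and 0.43 with the macrophage covariate, which left 0 at an unadjusted p under 0.05. Median-of-ratios and quantile scaling, which moved the median of all genes from 0.46 to 0.018 and -0.0011, each left 5 members apart, and 21 and 29 of 36 positive.

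Of all 36 tested members, the sign turned for 12 with median-of-ratios scaling, 4 with quantile scaling, 6 with quality weights and 20 with the macrophage covariate and 9 samples. Many of all genes turned as well, as their positive share went from 86.7% to 51.9%, 49.9%, 42.4% and 14.9% in that order. Turned signs themselves were not counted over all genes. Among the members, the sign turned for 3 without control replicate 1 (Ddx58, Eif2ak2 and Ifitm1), for 2 without knockout 1 (Ifi27l2a and Xaf1), and for 2 to 7 without control 1 and a further sample. Values of the members described in full and Ifit2 follow, and the cause was not tested. With median-of-ratios scaling the log2 differences were -0.12 for Bst2, -0.25 for Dtx3l, -0.55 for Ifi27l2a, -0.10 for Ifi35, -0.28 for Ifitm2, -0.12 for Slfn2 and -0.048 for Zbp1, and with quantile scaling -0.11 for Dtx3l. Quality weights gave -0.018 for Slfn8. With the macrophage covariate and 9 samples they were -0.47 for Bst2, -0.20 for Dhx58, -0.29 for Ifi35, -0.050 for Ifih1, -0.030 for Ifit2, -0.87 for Slfn1, -0.20 for Slfn2, -0.49 for Slfn8, -0.089 for Trim25, -0.48 for Trim30a and -0.084 for Zbp1. With that covariate and without control replicate 1 they were -0.42 for Bst2, -0.31 for Ifitm2 and 0.050 for Isg20. Leaving out 1 sample turned, among these, Ifi27l2a, to between -0.094 and -0.0015 without knockout 1 (-0.070) or control 2, 3 or 5 (-0.027), and Isg20, to between 0.031 and 0.067 without knockout 3 or 4 (0.043 each) or control 3 or 4. Ifi27l2a was 0.39 without control replicate 1, where its groups were apart. Slfn8 was -0.0064 and -0.077 without control 1 and knockout 2 or control 2.

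Same-numbered samples did not deviate together, with correlations of -0.017, -0.093, -0.14 and -0.089 for numbers 1 to 4. Without control replicate 1 they were -0.21, -0.15 and -0.018 for numbers 2 to 4. The numbers were not treated as pairs, although so few pairs cannot exclude a shared origin or batch. With the replicate block 0 members were called, 5 were at an unadjusted p under 0.05 and higher (5.97% of all genes), the median relative to all genes was 0.18 and Ifi27l2a had -0.027. Control replicate 5 has no knockout of its number, so it does not bear on the group difference in that fit. With the block and without control replicate 1, where only numbers 2 to 4 have both groups, there were 6 (6.98%), and Slfn1 had -0.0098.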

Other observations

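Close relatives of the members, looked at after the values were seen, did not all behave alike. Ifit1bl1, a paralog in the IFIT cluster, had 21.8, 29.6, 27.9 and 15.4 TPM in the knockouts, replicates 1 to 4, and 0.60, 22.2, 17.8, 28.01 and 21.3 TPM in the controls, replicates 1 to 5. Its groups overlapped, with a log2 difference of 0.058 without control replicate 1, against 0.99 for Ifit1. Ifi205, a p200 family relative of Ifi204, was at 52.7, 6.49, 7.26 and 14.4 TPM in knockouts and 1.1, 7.91, 1.96, 1.89 and 2.64 TPM in controls, with the highest value in knockout replicate 1. Ifitm6, a myeloid relative of the IFITM genes, was at 15.5, 7.45, 11.1 and 6.99 TPM in knockouts and 7.84, 2.93, 1.66, 6.99 and 0.69 TPM in controls, with a log2 difference of 1.64 without control replicate 1 (limma adjusted p 0.185). Ifi27, the relative of Ifi27l2a, lay between 228.1 and 260.6 TPM in knockouts and between 229.1 and 264.8 TPM in control replicates 2 to 5, with 94.8 TPM in control replicate 1. These differences between relatives were not tested against each other.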
